A study of Mus musculus with 56 samples.

Results

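The genes described here are 38 listed genes of protein folding in the endoplasmic reticulum (ER), ER-associated degradation (ERAD) and the unfolded protein response (UPR), out of 52230 genes counted in the liver. They are a list of named genes, drawn up with earlier results of these data known. The ATF6/XBP1 arm holds 33 of them. These are 10 chaperones and co-chaperones, 2 lectin chaperones, 5 disulfide isomerases and oxidation factors, 9 ERAD factors, 3 genes of translocation and signal peptide removal, the 3 sensors of ER stress and the transcription factor Xbp1. The ATF4/CHOP arm holds the other 5, which are Atf4, Ddit3, Trib3, Chac1 and Asns. The livers came from 56 male mice that differed at residue 446 of GKRP (gene Gckr), the protein that holds glucokinase in the hepatocyte nucleus. Residue 446 was proline on both alleles (PP), leucine on both (LL) or one of each (PL), by knock-in of the human P446L change into the mouse Gckr gene on a B6N background. The mice were adult. All of them were fed HFHSD, a diet rich in fat and sugar (45% of energy as fat, with 10% glucose and 5% fructose in the drinking water), over 20 weeks, and some mice per genotype received GKA, an activator of glucokinase, at 3 mg/kg. Without GKA there were PP (n = 9 after PP mouse 7 was left out), PL (n = 8) and LL (n = 10), and with GKA there were PP (n = 10), PL (n = 8) and LL (n = 10). No group on a standard diet was analysed here, so each difference is between mice that were all on HFHSD.

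The ER is the site where hepatocytes fold plasma proteins and assemble lipoproteins. When unfolded proteins accumulate, the sensor ATF6 is cleaved to an active transcription factor, IRE1 (gene Ern1) removes a short intron from Xbp1 mRNA so that an active XBP1 is made, and PERK (gene Eif2ak3) slows translation and favours that of ATF4. ATF6 and XBP1 raise transcription of chaperones and ERAD factors through ER stress response elements in promoters. In contrast, ATF4 raises genes of amino acid supply and, with CHOP (gene Ddit3), of cell death. Although PERK acts through ATF4, Eif2ak3 was counted here with the other sensors, in the ATF6/XBP1 arm.

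Promoter sequence was read from the GRCm39 genome, over 250 bases before the start of the canonical transcript, to see which of the 38 genes have such elements. The ER stress response element (ERSE: CCAAT and CCACG with 9 bases between them, on either strand) was found for 10 of the 38 genes (26.3%) and for 25 of 21769 promoters of all protein-coding genes (0.115%). The 10 were Hspa5, Hsp90b1, Creld2, Dnajc3, Calr, Canx, Pdia6, Ero1b, Syvn1 and Derl3. A shorter element (ERSE-II: ATTGG and CCACG with 1 base between them) was found for 3 of the 38 genes (7.89%), Herpud1, Hyou1 and Manf, and for 12 of all promoters (0.0551%). Of the other motifs searched, TGACGTGG (an XBP1 motif) was found for 1 of the 38 genes, Hyou1 (2.63%, against 0.56% of all promoters), where it overlapped an ERSE-II. The motif TGATGNAA (an ATF4 motif) was found for 3 of the 38 genes, Chac1, Ddit3 and Herpud1 (7.89%, against 3.39%). A match describes the letters in this window and not the binding of a factor. The stretches below are examples from the genes with an ERSE or ERSE-II, each 5′ to 3′ on the strand of the gene, with the element in capitals. Not all genes described below have such an element, and Dnajb9 and Ddit3 had neither in this window. The element of Creld2, Hyou1 and Manf lies on the opposite strand, and that of Hyou1 is the upstream one of its 2 ERSE-II matches.
Hspa5 (chr2:34662032-34662060, + strand): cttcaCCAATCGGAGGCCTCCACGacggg
Syvn1 (chr19:6096557-6096585, + strand): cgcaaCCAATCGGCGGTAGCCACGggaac
Creld2 (chr15:88703703-88703761, + strand): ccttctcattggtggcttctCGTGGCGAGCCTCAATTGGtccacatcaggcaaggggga
Herpud1 (chr8:95112996-95113024, + strand): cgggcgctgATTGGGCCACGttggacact
Hyou1 (chr9:44290652-44290680, + strand): gaaccgtgaCGTGGCCCAATccgcagcca
Manf (chr9:106769229-106769257, - strand): tcctgggcaCGTGGACCAATgaggatgca

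The depth was between 5180009 and 8081223 total reads per mouse (median 6545351). Between genes, levels are compared only in TPM, a unit that allows for transcript length. The median over 55 mice was highest for P4hb (593 TPM), Calr (289), Hspa5 (232), Hsp90b1 (225) and Herpud1 (180). It was 58.6 TPM for Xbp1, 25.2 for Atf4, 4.18 for Atf6, 3.23 for Ern1 and 1.85 for Eif2ak3. At the low end were Chac1 (0.939 TPM, 1 to 43 reads per mouse) and Asns (0.129 TPM, 0 to 20 reads per mouse). Asns did not pass the low-count filter of the edgeR test in any comparison, and Derl3 (0 to 101 reads per mouse) was not tested for the effect of GKA in PL, so that 37 of the 38 genes were tested with edgeR elsewhere. Marker genes of hepatocytes summed to between 70315 and 125756 CPM (read counts scaled to library size) in the 55 mice, and 6 of 8 pancreatic acinar markers (Cpa1, Cpb1, Prss2, Ctrb1, Pnlip and Amy2b) had 0 reads in each of them, where the list as a whole summed to between 6.83 and 51.7 CPM.

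To see how far these genes differed by genotype, each was compared between groups with the quasi-likelihood test of edgeR. Genes were called differentially expressed (DEGs) where the adjusted p was below 0.05 and the ratio was 0.7 or less, or 1.3 or more. Genes with an unadjusted p below 0.05 were also counted, as genes lower or higher at the unadjusted threshold, beside the percentage of all genes tested that passed it in the same direction. In LL against PP without GKA, 15 of 37 genes (40.5%) were lower at the unadjusted threshold, against 5.69% of all genes, and 0 were higher, against 6.15%. With GKA, 20 of 37 (54.1%) were lower in LL than in PP, against 5.11%, and 0 were higher, against 5.27%. In PL against PP without GKA, 16 of 37 (43.2%) were lower, against 5.02%, and 1 (2.7%), Trib3, was higher, against 5.09%. With GKA, 17 of 37 (45.9%) were lower in PL than in PP, against 4.31%, and 1 (2.7%), again Trib3, was higher, against 3.89%. The comparisons of LL and of PL with PP share the PP mice, so they are not independent of each other. With the level of clock genes as a covariate (described with the clock values), the genes lower at the unadjusted threshold were 9 in LL without GKA (8.46% of all genes) and 10 with GKA (4.5%). In PL they were 9 without GKA (6.38%) and 2 with GKA (3.94%), so that the count in PL with GKA was then near that of all genes. In whole liver, fewer cells of a type and less RNA per cell cannot be told apart.

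**Figure D1:**
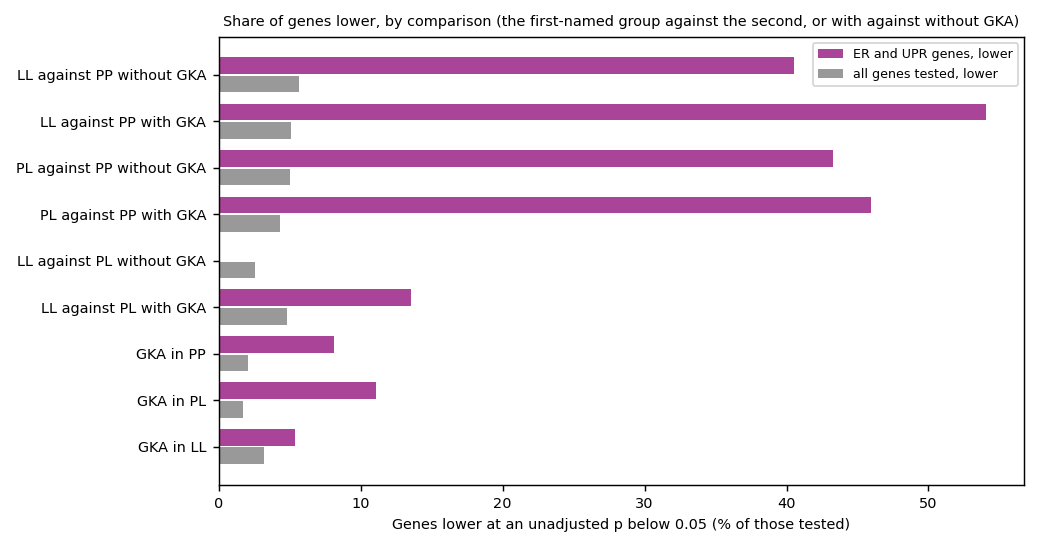
The horizontal axis gives the percentage of genes lower at an unadjusted p below 0.05 (edgeR), for the ER and UPR genes tested (coloured bars) and all genes tested (grey bars), in each of 9 comparisons on the vertical axis. In the 4 comparisons of LL or PL with PP, between 40.5% and 54.1% of the ER and UPR genes were lower, and in LL against PL without GKA the share was 0%, all without the clock covariate, with which PL against PP with GKA had 2 genes lower.

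Few of these genes passed the adjusted threshold. By edgeR, 0 of the 37 were DEGs in LL against PP without GKA (0.0854% of all genes), in PL against PP without GKA (0.151%) and in PL against PP with GKA (0%). In LL against PP with GKA, Herpud1 was the single DEG among them (0.239% of all genes). With DESeq2, the tool of the study, 6 were DEGs in LL against PP without GKA (Hspa5, Manf, Creld2, Dnajb9, Herpud1 and Ddit3), where 1.09% of all genes were. With GKA, 3 were DEGs by DESeq2 in LL (Herpud1, Dnajb9 and Syvn1), where 0.7% of all genes were. In PL against PP, 6 were DEGs by DESeq2 without GKA (Hspa5, Creld2, Dnajb9, Herpud1, Syvn1 and Ddit3), against 0.62% of all genes, and 1 with GKA (Creld2), against 0.297%. Each of these DEGs was lower in LL or PL than in PP.

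Chaperones and co-chaperones had the lowest median fold change of the 7 roles in LL without GKA. Of these, 10 of 10 had a log2 fold change below 0 in LL against PP, with a median of -0.64, where the median over all genes was 0.01 and 47.3% of all genes were below 0, and 8 of the 10 passed the unadjusted threshold (5.69% of all genes). Hspa5 (chromosome 2, 34661982 to 34668880, GRCm39) encodes BiP, the main HSP70 chaperone of the ER, which also binds the sensors. Its level was 450 to 1440 CPM in PP (median 1092) and 300 to 912 CPM in LL (median 556). The groups overlapped, but 7 of 9 PP mice were above the highest LL mouse, and 10 of 10 LL mice were below the PP mean. Hspa5 in LL was 57.7% of PP, a log2 fold change of -0.79 (SE 0.23, edgeR unadjusted p 0.00264, adjusted p 0.146).

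Creld2 (chromosome 15, 88703795 to 88710890), an ER protein with disulfide isomerase activity, had the lowest log2 fold change of the 37 genes in LL without GKA. Its level was 16.8 to 107 CPM in PP (median 54.3) and 7.98 to 44 CPM in LL (median 26.9), and 6 of 9 PP mice were above each LL mouse. This gave 44.6% of PP, a log2 fold change of -1.17 (SE 0.34, edgeR adjusted p 0.147). Manf (chromosome 9, 106715511 to 106769727), a small secreted protein that binds BiP, was 36.7 to 150.0 CPM in PP (median 104) and 29.1 to 77.6 CPM in LL (median 56.6). Of the PP mice, 7 of 9 were above the highest LL mouse, with a log2 fold change of -0.88 (SE 0.23, edgeR adjusted p 0.112). Dnajb9 (chromosome 12, 44252341 to 44257171), which encodes ERdj4, a co-chaperone that brings BiP to IRE1 and to ERAD substrates, was 24.3 to 86.5 CPM in PP (median 54.6). In LL it was 17.4 to 65.4 CPM (median 23.5), where LL mouse 42 had the highest value and the other 9 mice had at most 30.6 CPM. Dnajb9 thus had a log2 fold change of -0.99 (SE 0.25, edgeR adjusted p 0.109).

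The other chaperones lay closer to 0. Hyou1 (GRP170, the exchange factor of BiP) was 80.2 to 280 CPM in PP (median 245) and 35.1 to 235 CPM in LL (median 116), with 5 of 9 PP mice above the highest LL mouse. Sdf2l1, a partner of the DnaJ co-chaperones, was 6.16 to 40.7 CPM in PP (median 26.9) and 9.73 to 24.5 CPM in LL (median 14.7), where the lowest mouse was a PP mouse. The log2 fold changes were -0.70 for Hyou1 (SE 0.31), -0.58 for Sdf2l1 (SE 0.27), -0.39 for Hspa13 (SE 0.18) and -0.35 for Dnajb11 (SE 0.12), all 4 past the unadjusted threshold (edgeR adjusted p 0.219 to 0.407). Hsp90b1 (GRP94, the HSP90 of the ER) was 518 to 1067 CPM in PP (median 884) and 451 to 890 CPM in LL (median 663). At -0.31 (SE 0.15) it did not pass, nor did Dnajc3 (p58IPK, which inhibits PERK) at -0.20 (SE 0.12). The lectin chaperones Calr (calreticulin) and Canx (calnexin), which hold glycoproteins during folding, lay at -0.21 (SE 0.10) and -0.16 (SE 0.09) on the log2 scale, and neither passed. Calr was 450 to 799 CPM in PP (median 687) and 412 to 641 CPM in LL (median 572), and 10 of 10 LL mice were below the PP mean. Among disulfide isomerases and oxidation factors, 1 of 5 passed, where 5.69% of all genes were lower. This was Pdia4 (ERp72), at 99.4 to 254 CPM in PP (median 234) and 85 to 202 CPM in LL (median 129), with a log2 fold change of -0.60 (SE 0.19, edgeR adjusted p 0.181). This was -0.13 (SE 0.19) with the clock covariate and -0.99 (SE 0.24) with an offset for transcript length. P4hb (protein disulfide isomerase), the most abundant gene of the 38, was 1009 to 1477 CPM in PP and 1073 to 1456 CPM in LL, with a log2 fold change of 0.04 (SE 0.08).

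**Figure D2:**
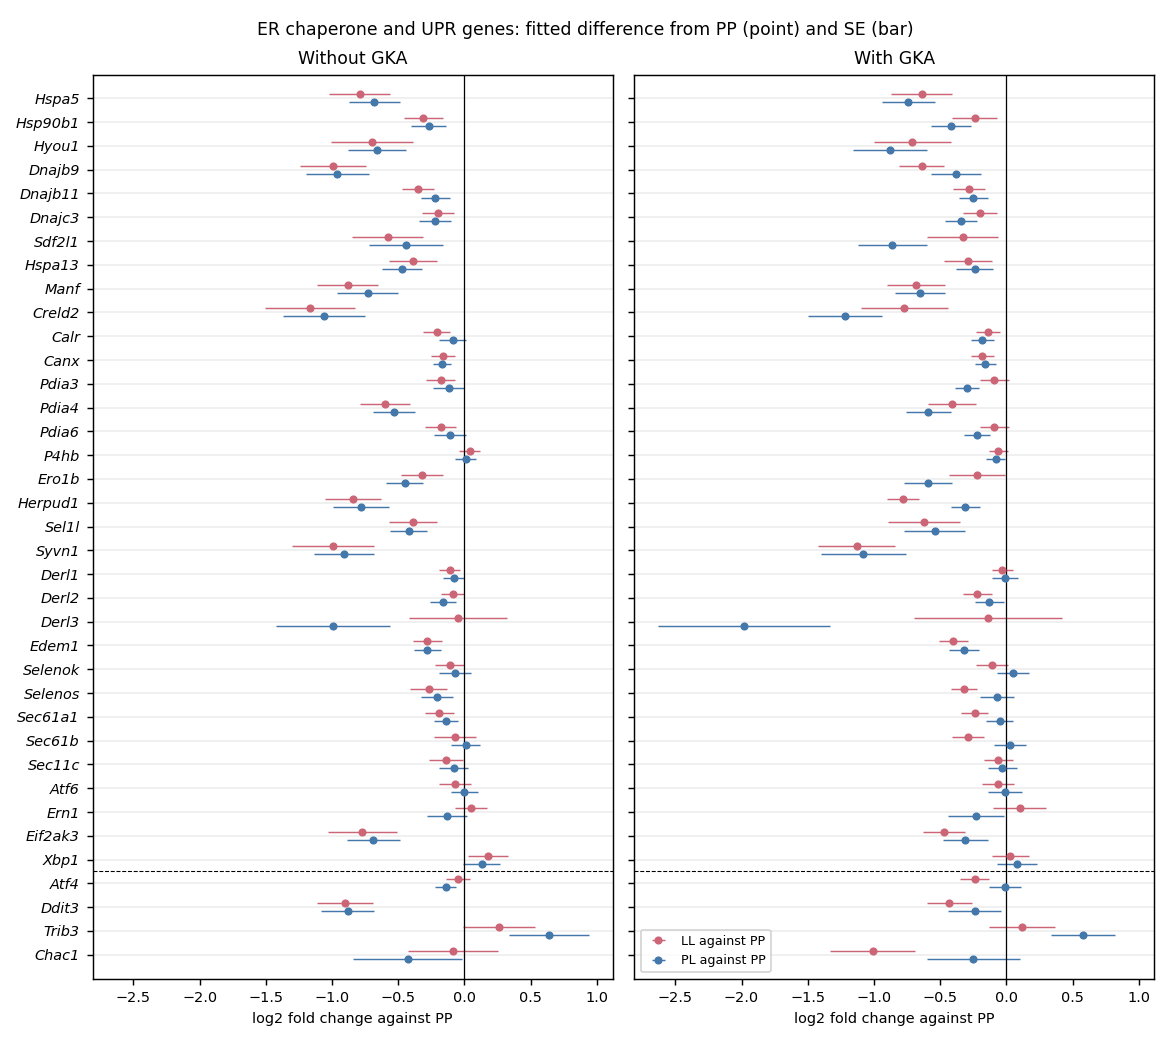
The horizontal axes give the log2 fold change (edgeR) of LL (red) and PL (blue) against PP, without GKA on the left and with GKA on the right. The vertical axis lists the 37 tested genes, with those of the ATF4/CHOP arm under the dashed line, and bars are the SE. Hspa5, Manf, Creld2 and Syvn1 lie between -0.64 and -1.22 in the 4 comparisons, whereas P4hb, Atf6 and Xbp1 lie between -0.08 and 0.18.

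For ERAD factors, 9 of 9 had a log2 fold change below 0 in LL without GKA (47.3% of all genes) and 4 passed the unadjusted threshold (5.69%). Herpud1 (chromosome 8, 95113022 to 95123141), an ER membrane protein that assembles the ERAD complex, was 226 to 677 CPM in PP (median 384) and 148 to 380 CPM in LL (median 198). Of the LL mice, 7 of 10 were below the lowest PP mouse. Its log2 fold change was -0.84 (SE 0.21, edgeR unadjusted p 0.000533, adjusted p 0.0986). Syvn1 (chromosome 19, 6096606 to 6103747) encodes HRD1, the ubiquitin ligase of this complex. It was 33.2 to 145 CPM in PP (median 110.0) and 17.1 to 115 CPM in LL (median 40.2), with a log2 fold change of -0.99 (SE 0.31, edgeR adjusted p 0.172). Sel1l, the partner of HRD1, was 94.4 to 166 CPM in PP (median 133) and 59.6 to 163 CPM in LL (median 109), with a log2 fold change of -0.39 (SE 0.18). Edem1, a mannosidase-like lectin of ERAD, was 74.3 to 136 CPM in PP (median 110.0) and 67 to 104 CPM in LL (median 91.5), with a log2 fold change of -0.28 (SE 0.11), and both genes passed the unadjusted threshold. For Edem1, 6 of 9 PP mice were above each LL mouse. Its log2 fold change was -0.04 (SE 0.13) with the clock covariate and -0.57 (SE 0.23) with an offset for transcript length. Derl1, Derl2, Selenok and Selenos lay between -0.09 and -0.27 and did not pass. The translocation and signal peptide genes Sec61a1, Sec61b and Sec11c lay between -0.07 and -0.19, and 0 of 3 passed.

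With GKA the lowest medians within the ATF6/XBP1 arm in LL against PP were again in these groups. They were -0.48 in the 10 chaperones and co-chaperones and -0.32 in the 9 ERAD factors. In each group, 6 genes passed the unadjusted threshold, where 5.11% of all genes were lower. Herpud1 had 207 to 331 CPM in PP with GKA (median 257) and 113 to 233 CPM in LL with GKA (median 142). The groups barely overlapped, since 9 of 10 LL mice were below each PP mouse. Herpud1 was the DEG, with a log2 fold change of -0.78 (SE 0.12, edgeR unadjusted p 1.89e-06, adjusted p 0.00658), which is 58.3% of PP. An offset for the transcript lengths that Salmon used in each mouse left the log2 fold change at -0.78, but with SE 0.22 and an adjusted p of 0.348. With this offset, Herpud1 did not pass the unadjusted threshold in LL without GKA, at -0.59 (SE 0.32). Nor did it pass in PL without GKA, at -0.47 (SE 0.28), or in PL with GKA, at -0.07 (SE 0.29).

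Syvn1 with GKA was 25.5 to 176 CPM in PP (median 75.6) and 25.8 to 68 CPM in LL (median 36.5), and 5 of 10 PP mice were above each LL mouse. The log2 fold change was -1.13 (SE 0.29, edgeR adjusted p 0.106). Hspa5 was 470 to 1569 CPM in PP (median 801) and 359 to 1031 CPM in LL (median 517), with a log2 fold change of -0.64 (SE 0.23, edgeR adjusted p 0.293). Dnajb9 at -0.64, Manf at -0.68, Creld2 at -0.77 and Hyou1 at -0.71 all passed the unadjusted threshold. Selenos, Sec61a1, Sec61b and Derl2, which had not passed without GKA, were lower at the unadjusted threshold with GKA, at -0.32, -0.24, -0.29 and -0.22. LL and PP were not shown to differ by another amount under GKA, since the interaction gave 0 DEGs of 37 (0% of all genes), and 0 genes passed the unadjusted threshold in either direction (2.85% of all genes lower and 2.9% higher). By DESeq2 the interaction also called 0 of these genes.

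**Figure D3:**
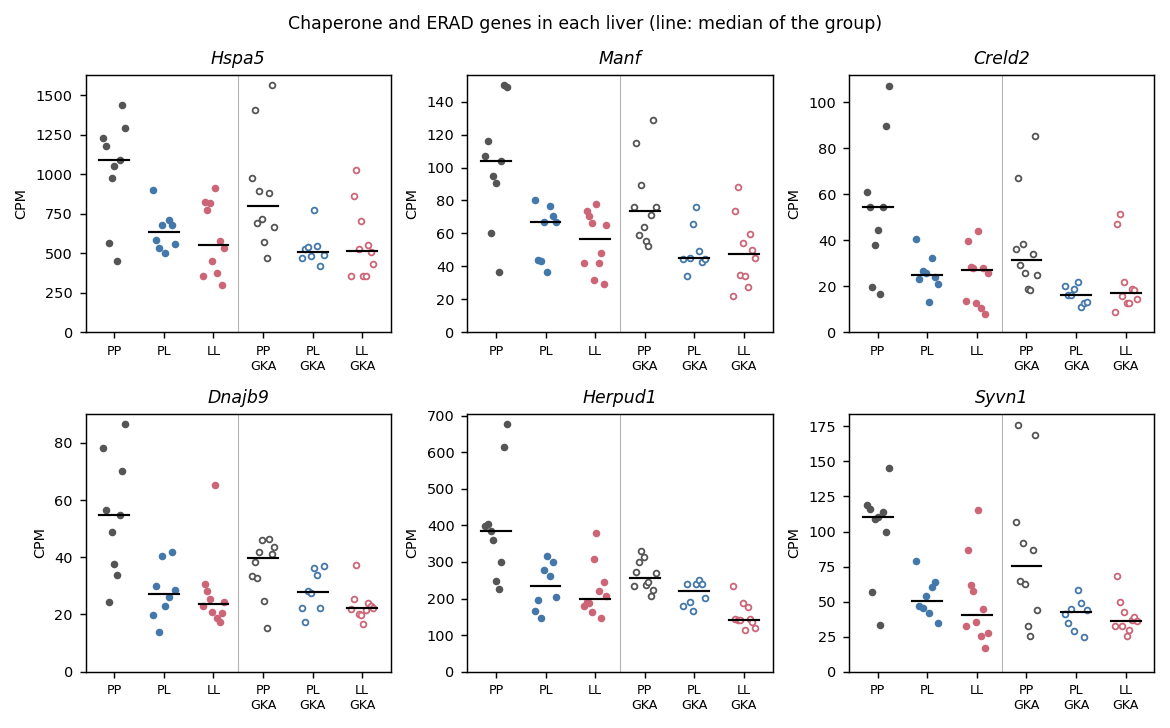
Each point is the level in 1 liver (CPM, vertical axis from 0) of Hspa5, Manf, Creld2, Dnajb9, Herpud1 and Syvn1, by genotype and GKA on the horizontal axis. Filled points are mice without GKA and open points mice with GKA, and lines are group medians. For Hspa5 the medians were 1092 CPM in PP, 632 in PL and 556 in LL, and 2 PP mice lay within the range of the LL mice.

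Heterozygous mice were compared in the same way. In PL against PP without GKA, the median over the 10 chaperones and co-chaperones was -0.56 and 6 passed the unadjusted threshold (5.02% of all genes). Hspa5 was 500.0 to 899 CPM in PL (median 632), with a log2 fold change of -0.68 (SE 0.19, edgeR adjusted p 0.177). Creld2 was 13.3 to 40.5 CPM in PL (median 24.9), with a log2 fold change of -1.06 (SE 0.31, edgeR adjusted p 0.194). Herpud1 was 147 to 317 CPM (median 234), with a log2 fold change of -0.78 (SE 0.21, edgeR adjusted p 0.153), and Dnajb9 was 13.8 to 41.9 CPM (median 27.2), with a log2 fold change of -0.96 (SE 0.24, edgeR adjusted p 0.122). For each of the 4 genes, 8 of 8 PL mice were below the PP mean. Syvn1 was 34.8 to 78.9 CPM in PL (median 50.5), with a log2 fold change of -0.91 (SE 0.23, edgeR adjusted p 0.115), and 7 of 9 PP mice were above the highest PL mouse. Ero1b, an oxidase that renews disulfide isomerases, was 35.9 to 91.6 CPM in PP (median 78.5) and 43.9 to 66.3 CPM in PL (median 52.7), with a log2 fold change of -0.45 (SE 0.14, edgeR adjusted p 0.238), and again 7 of 9 PP mice were above each PL mouse.

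With GKA, PL mice had the lowest Creld2 of the 6 groups by mean. Creld2 was 18.2 to 85.2 CPM in PP with GKA (median 31.6) and 10.9 to 22 CPM in PL with GKA (median 16.2), and 8 of 10 PP mice were above each PL mouse. Its log2 fold change was -1.22 (SE 0.28, edgeR unadjusted p 0.000266, adjusted p 0.131). Herpud1, at -0.31, was closer to PP here than in the other comparisons with PP, and Dnajb9, at -0.38, did not pass the unadjusted threshold. Among disulfide isomerases and oxidation factors, 4 of 5 passed, against 4.31% of all genes lower. These were Pdia3 at -0.30, Pdia4 at -0.59, Pdia6 at -0.22 and Ero1b at -0.59.

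LL was then compared with PL. Without GKA, 0 of 37 genes were DEGs in LL against PL (0.00942% of all genes), 0 were lower at the unadjusted threshold (2.56%) and 1, Derl3, was higher (2.02%). The median log2 fold change of the ATF6/XBP1 arm was -0.05, and those of the 10 chaperones and co-chaperones lay between -0.16 and 0.06. With GKA, again 0 of 37 were DEGs (0%). At the unadjusted threshold, 5 were lower (Herpud1, Trib3, Atf4, Sec61b and Selenos, against 4.79% of all genes) and 2 higher (Derl3 and Sdf2l1, against 3.79%). Herpud1 had the smallest p of the 7, with 165 to 252 CPM in PL (median 221) and a log2 fold change of -0.48 (SE 0.13, edgeR adjusted p 0.257). With DESeq2 Herpud1 passed the adjusted threshold in LL against PL with GKA (adjusted p 0.0491) but not the fold threshold, and 0 of these genes were DEGs in LL against PL.

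Derl3, a derlin that is most abundant in cells specialised for secretion, differed from the other ERAD factors. Without GKA its median was 4.08 CPM in PP (0.641 to 8.05), 1.77 CPM in PL (0.643 to 3.97) and 3.74 CPM in LL (1.41 to 6.71). The log2 fold change against PP was -0.99 (SE 0.43, edgeR adjusted p 0.443) in PL and -0.05 (SE 0.37) in LL, and that of LL against PL was 0.93 (SE 0.35, edgeR adjusted p 0.844). With GKA the medians were 2.6 for PP, 0.716 for PL and 2.32 CPM for LL. There the log2 fold change was -1.98 for PL against PP (SE 0.65, edgeR adjusted p 0.355) and 1.84 for LL against PL (SE 0.52, edgeR adjusted p 0.29), past the unadjusted threshold but not the adjusted one. B and plasma cell markers, which also mark secretory cells, summed to medians of 39.2 CPM in PL with GKA and 17.3 to 20 CPM in the other groups, opposite in direction to Derl3, and their part in its level was not tested.

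To see whether GKA altered these genes, mice with and without it were compared within each genotype. By edgeR 0 of these genes were DEGs in PP, PL or LL (0% of all genes in each), and by DESeq2 0 were. In PP, Ddit3, Herpud1 and Dnajb9 were lower with GKA at the unadjusted threshold (2.06% of all genes), and 0 were higher (1.5%). Herpud1 was 226 to 677 CPM in PP without GKA and 207 to 331 CPM with it, with a log2 fold change of -0.61 (SE 0.17, edgeR adjusted p 1). In PL, 4 of 36 genes (Creld2, Sdf2l1, Pdia3 and Syvn1) were lower with GKA (1.71%) and 0 higher (1.47%). Creld2 had the largest of these differences, from a median of 24.9 CPM to 16.2 CPM and a log2 fold change of -0.66 (SE 0.19, edgeR adjusted p 0.999). In LL, Herpud1 and Chac1 were lower (3.2% of all genes) and 0 were higher (2.95%), with Herpud1 going from a median of 198 CPM to 142 CPM (log2 fold change -0.54, SE 0.16, edgeR adjusted p 0.616). Of the 10 chaperones and co-chaperones, 10 had a log2 fold change by GKA below 0 in PP (median -0.17), 8 in PL (median -0.24) and 8 in LL (median -0.07), where 48.4%, 47.7% and 49.5% of all genes were below 0. The median for the whole ATF6/XBP1 arm was -0.05 in PP, -0.09 in PL and -0.03 in LL.

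Of the 3 sensors, 1 passed the unadjusted threshold in LL without GKA, where 5.69% of all genes were lower. Eif2ak3 (PERK, chromosome 6, 70821461 to 70882235) was 10.5 to 20.9 CPM in PP (median 14.8) and 2.73 to 23.8 CPM in LL (median 8.39). Of the LL mice, 8 of 10 were below the lowest PP mouse, but LL mouse 42, the 1 above the PP mean, was also above the highest PP mouse. Eif2ak3 had a log2 fold change of -0.77 (SE 0.26, edgeR adjusted p 0.225), and without LL mouse 42, its highest LL mouse, it was a DEG at -1.05 (edgeR adjusted p 0.0218). With single mice left out in turn, the log2 fold change ranged from -1.05 to -0.66. In PL it was -0.69 (SE 0.20, edgeR adjusted p 0.198), and with GKA -0.47 in LL and -0.31 in PL. With the transcript length offset the direction in LL with GKA turned, to 0.31 (SE 0.31).

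Atf6 (chromosome 1, 170532026 to 170696208) was 39.8 to 66.5 CPM in PP (median 57) and 34.9 to 66.9 CPM in LL (median 55.2), and the PP mean split the LL mice 5 to 5. Its log2 fold change was -0.07 (SE 0.12) and lay between -0.07 and 0.00 in the 4 comparisons with PP. Ern1 (IRE1, chromosome 11, 106283818 to 106378686) was 25.3 to 45.4 CPM in PP (median 38.1) and 30.4 to 56.5 CPM in LL (median 37.8), with a log2 fold change of 0.05 (SE 0.12). Neither gene passed the unadjusted threshold in any of the 4.

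Xbp1 (chromosome 11, 5470606 to 5483027) was 113 to 159 CPM in PP (median 140.0), 107 to 247 CPM in PL (median 136) and 98 to 250 CPM in LL (median 157). The spread was wider in PL and LL, with 5 of 10 LL mice above the highest PP mouse and 3 below the lowest. In LL its log2 fold change was 0.18 (SE 0.15, edgeR adjusted p 0.692). As annotated, the stretch that IRE1 removes is a 26-base intron at chr11:5474278-5474303. The intron is shown in capitals with its flanks, because its absence is what marks the active form. The bases GCAGCA open the intron and also directly follow it, so the annotation does not fix where exactly IRE1 cuts.
Xbp1 (chr11:5474263-5474318, + strand): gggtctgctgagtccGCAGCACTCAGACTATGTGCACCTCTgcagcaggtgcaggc
Of the 5 Xbp1 transcripts counted, 1 (Xbp1-205) lacks this intron. Its share of the Xbp1 reads was 0 to 16% in PP (mean 4.78 ± 5.75%, SD, n = 9) and 0 to 14.7% in LL (mean 4.66 ± 5.88%, n = 10; exact permutation p 0.968, two-sided). With GKA the means were 6.3 ± 7.43% in PP and 4.88 ± 5.57% in LL (n = 10 each; permutation p 0.649). Between 3 and 5 mice of every group had 0 reads assigned to it. The Xbp1 transcripts share most of their sequence, so few reads tell them apart.

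**Figure D4:**
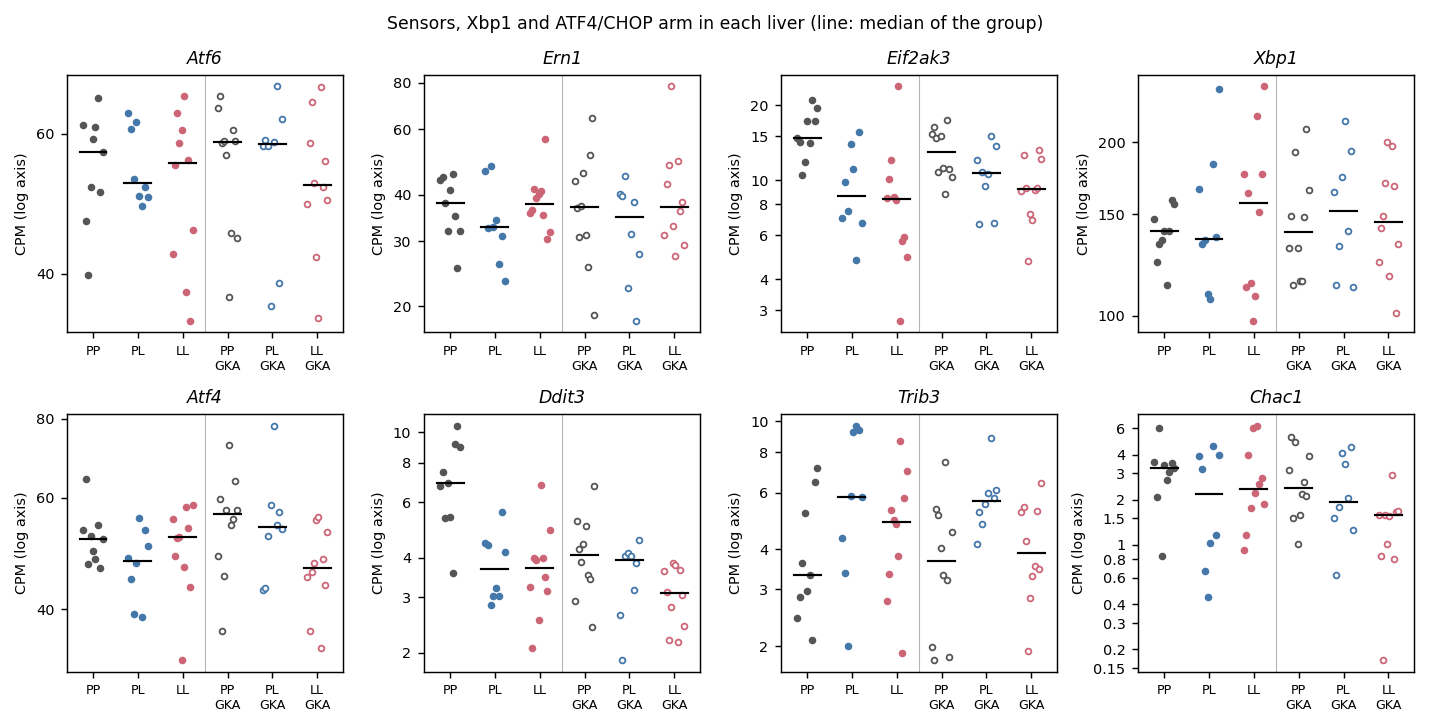
Each point is the level in 1 liver (CPM, logarithmic vertical axis with its own range in each panel) of Atf6, Ern1, Eif2ak3, Xbp1, Atf4, Ddit3, Trib3 and Chac1, by genotype and GKA on the horizontal axis. Filled points are mice without GKA, open points mice with GKA, and lines are medians. Ddit3 had a median of 6.89 CPM in PP and 3.69 to 3.71 CPM in PL and LL without GKA, whereas Atf4 medians were 47.7 to 51.9 CPM in these 3 groups.

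The ATF4/CHOP arm had 4 genes tested. Without GKA its median log2 fold change was -0.07 in LL, with 1 gene lower at the unadjusted threshold (5.69% of all genes). In PL it was -0.28, with 1 lower (5.02% of all genes) and 1 higher (5.09%). With GKA the median was -0.34 in LL, with 3 genes lower (Ddit3, Atf4 and Chac1, against 5.11% of all genes). In PL with GKA it was -0.13, with 0 lower (4.31% of all genes) and 1 higher (3.89%). Ddit3 (CHOP, chromosome 10, 127124268 to 127132163) was 3.59 to 10.5 CPM in PP (28 to 60 reads per mouse, median 6.89 CPM) and 2.08 to 6.81 CPM in LL (17 to 43 reads, median 3.71 CPM). In PL it was 2.83 to 5.59 CPM (median 3.69). Of the LL mice, 10 of 10 were below the PP mean, as were 8 of 8 PL mice. Ddit3 had a log2 fold change of -0.90 in LL (SE 0.21, edgeR unadjusted p 0.000275, adjusted p 0.0775) and -0.88 in PL (SE 0.20, edgeR unadjusted p 0.00025, adjusted p 0.0722). With GKA, Ddit3 was 2.42 to 6.76 CPM in PP (median 4.07), a log2 fold change by GKA of -0.77 (SE 0.20, edgeR unadjusted p 0.000749, adjusted p 1). The log2 fold change against PP was then -0.43 in LL and -0.24 in PL.

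Atf4 (chromosome 15, 80139372 to 80141745) was 46.5 to 64.2 CPM in PP (median 51.6) and 33.3 to 58.4 CPM in LL (median 51.9), with a log2 fold change of -0.05 (SE 0.09). With GKA it was -0.24 in LL (SE 0.11, edgeR adjusted p 0.459). Trib3, a pseudokinase induced by ATF4 and CHOP, was at a median of 3.33 CPM in PP (2.09 to 7.16), 5.82 in PL (2.00 to 9.69) and 4.86 in LL (1.9 to 8.67). It was the gene of the 38 that was higher in PL at the unadjusted threshold. The log2 fold change in PL was 0.64 without GKA (SE 0.30, edgeR adjusted p 0.483) and 0.58 with GKA (SE 0.24, edgeR adjusted p 0.531), and in LL it was 0.26 and 0.12. With the clock covariate, that of PL was -0.30 (SE 0.29) without GKA and 0.07 (SE 0.22) with GKA. With the transcript length offset, it was 1.25 (SE 0.42) in PL without GKA and 0.72 (SE 0.38) with GKA.

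Chac1, an enzyme that degrades glutathione, was 0.844 to 6.03 CPM in PP (median 3.28) and 0.923 to 6.26 CPM in LL (median 2.38), with a log2 fold change of -0.09 (SE 0.34). With GKA it was 1.01 to 5.25 CPM in PP (median 2.4) and 0.17 to 2.93 CPM in LL (median 1.57), with a log2 fold change of -1.01 (SE 0.32, edgeR unadjusted p 0.00503, adjusted p 0.217). Asns (asparagine synthetase) had medians of 0.159 to 1.02 CPM over the 6 groups and at most 20 reads in a mouse. Its values overlapped between groups, but 10 of 10 LL mice were below the PL mean both without and with GKA. With DESeq2, which tested it, the log2 fold change of LL against PL was -1.57 (SE 0.71, unadjusted p 0.0272) without GKA and -1.83 (SE 0.60, unadjusted p 0.00224) with GKA, and DESeq2 gave no adjusted p for either.

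The level of the ATF6/XBP1 arm was also compared between mice of 1 group. Averaged over the 33 genes, log2 CPM was 5.97 to 6.96 in PP (mean 6.59 ± 0.34, SD), 6.09 to 6.5 in PL (6.26 ± 0.14) and 5.86 to 6.54 in LL (6.22 ± 0.25). With GKA it was 6.46 ± 0.29 for PP, 6.13 ± 0.13 for PL and 6.15 ± 0.28 for LL. The 3 groups without GKA thus overlapped, since the lowest PP mouse was in the range of the LL mice. In single mice, Hspa5 was 450 CPM in PP mouse 6, 569 in mouse 3, 979 in mouse 4 and 1051 to 1440 in the other 6 PP mice, and LL mice went from 300 CPM in mouse 45 to 912 in mouse 42. PP mouse 6, the lowest for Hspa5, was also lowest by the mean of the arm and was among the 3 lowest of 9 PP mice for 30 of the 32 other genes of the arm. PP mouse 9, with the highest Hspa5, was among the 3 highest for 24 of 32. In PL with GKA, mouse 33 was highest for Hspa5 (776 CPM, the others 421 to 549) and among the 3 highest for 27 of 32. For the other mice highest for Hspa5, the count was 24 of 32 in PL mouse 21 and 15 in LL mouse 42. With GKA it was 22 in PP mouse 19 and 23 in LL mouse 49. For the other mice lowest for Hspa5, it was 17 in PL mouse 25 and 21 in LL mouse 45. With GKA it was 20 in PP mouse 17, 20 in PL mouse 35 and 13 in LL mouse 53. A group held only 8 to 10 mice, so a mouse is often among 3 of them by chance. PP mouse 6 was named for its low values, so leaving it out raises the PP mean of most of these genes. Without it, the number of the 37 genes lower at the unadjusted threshold in LL was 24 instead of 15, and Herpud1, Manf and Ddit3 were DEGs. That was the highest number with a single mouse left out, and the lowest was 10, without PP mouse 1.

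Genes with an ERSE or ERSE-II in the window were set beside the other genes of the arm, as a description. In PL against PP, the log2 fold change of the 13 genes with an element had its median at -0.66 without GKA and at -0.59 with it, and for the 20 others the median was -0.15 and -0.18. In LL against PP the medians were -0.32 and -0.18 without GKA, and with GKA they were -0.24 with an element and -0.26 without. Dnajb9, Pdia4, Eif2ak3 and Sdf2l1 had no element in the window and lay at -0.44 or below in both LL and PL without GKA, whereas Canx, Calr and Pdia6 had one and lay between -0.09 and -0.21.

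Other genes of the same pathways, outside the 38, were counted from lists of ER folding, ERAD, translocation and glycosylation, UPR regulators and ATF4 targets. In LL against PP without GKA, 0 of them were DEGs by edgeR. At the unadjusted threshold, which 5.69% of all genes passed as lower and 6.15% as higher, 4 of 26 other ER folding genes were lower and 0 higher, 4 of 20 other ERAD genes were lower and 2 higher, and 9 of 25 genes of translocation and glycosylation were lower and 0 higher. Of other UPR regulators 1 of 13 was lower and 2 higher, and of other ATF4 targets 1 of 21 was lower and 1 higher. Their medians lay between -0.15 and 0.00. Creb3l2, an ER-bound transcription factor related to ATF6, had the smallest p, at 11.4 to 26.8 CPM in PP (median 22.5) and 7.25 to 25.3 CPM in LL (median 10.1). Its log2 fold change was -0.91 (SE 0.20, edgeR adjusted p 0.0675) and with GKA -0.75 (SE 0.17, edgeR adjusted p 0.0586). Creb3l3 (CREBH), its liver-enriched relative, was in the other direction, at 175 to 228 CPM in PP (median 192) and 189 to 287 CPM in LL (median 240.0; log2 fold change 0.29, SE 0.09, edgeR adjusted p 0.154). Lower levels were not particular to genes of the ER. Of the chaperones of the cytosol, 11 of 17 heat shock genes were lower at the unadjusted threshold and 1 higher in LL without GKA. There, 5.69% of all genes were lower and 6.15% higher, and 1 heat shock gene was a DEG by edgeR (0.0854% of all genes). In PL without GKA, 11 of 17 were lower (5.02% of all genes), with 4 DEGs (0.151%).

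The clock genes differed between the same groups. A component of 16 clock genes (their first principal component, 61.1% of the variance, in SD units over 55 mice) was -0.63 ± 0.56 in PP, 0.58 ± 0.80 in PL and 0.52 ± 0.79 in LL (SD), and with GKA -0.89 ± 1.3, 0.55 ± 0.54 and 0.03 ± 0.76. The time of day of tissue collection was not given in the sources used here. With this component as a covariate, the log2 fold change in LL without GKA was -1.04 for Herpud1 (SE 0.26), -0.91 for Ddit3 (SE 0.28), -0.38 for Hspa5 (SE 0.26), -0.35 for Syvn1 (SE 0.31), -0.33 for Eif2ak3 (SE 0.30) and -0.13 for Pdia4 (SE 0.19). Herpud1 was still a DEG in LL with GKA, at -0.91 (SE 0.12, edgeR adjusted p 0.00108). In PL without GKA, Herpud1 became a DEG, at -1.33 (SE 0.24, edgeR adjusted p 0.036), whereas with the transcript length offset it was -0.47 (SE 0.28). The PP mice reached 0.14 at most and the LL mice went down to -0.61 without GKA, so that genotype and clock phase cannot be fully told apart.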

How the data were processed

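Liver RNA of 56 mice was sequenced, with 1 library per mouse, and replicates are separate mice. RNA integrity numbers were above 6. The authors checked reads with FastQC and ran Salmon 1.4.0 on the GENCODE M26 transcripts (GRCm39). The deposited files hold an estimated count per transcript, which the authors' Salmon run did not normalise, and TPM, which it scaled by effective length. Counts were summed per gene by transcript identifier in GENCODE vM39 (137570 of 139225 transcripts, 98.8%, matched, with at least 99.8% of the reads of each mouse) and rounded. Ddit3 has a second annotation entry with 0 reads.

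Each comparison was a quasi-likelihood test of the 2 groups in edgeR 4.0.16 (R 4.3.3) with TMM and filterByExpr, and p-values were adjusted by the Benjamini-Hochberg method over all genes tested. For edgeR, the SE of a log2 fold change is its absolute value divided by the square root of the quasi-likelihood F statistic. For DESeq2, the SE is that of the fit. CPM use TMM scaling. PP mouse 7 was left out, as in the study, and was below the other PP mice for 10 of the 38 genes, within their range for 26 and above it for 2. Single quantities were compared by permutation (SciPy 1.17.1), exact with under 10 mice in a group and otherwise with 100000 resamples. The p-values measure the spread between mice, and no batch was named in the labels. The fits were tested on simulated data. Promoter stretches were shortened around the element where they overlap an annotated exon.

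The genes, the lists and the tests were chosen with earlier results of these data known. The genes named are the 10 of the ATF6/XBP1 arm with the smallest p in LL against PP without GKA, each DEG, the sensors, Xbp1 and the ATF4/CHOP arm. Of the other pathway genes, the 3 lower and 3 higher with the smallest p were taken, of which Creb3l2 and Creb3l3 are described. Genes outside this rule, such as Derl3, P4hb and Hyou1, are given as examples of their group. The alternatives were DESeq2 1.42.0, relative log expression scaling, no low-count filter, 1 fit of the 6 groups, no fold threshold, the clock covariate, a transcript length offset, keeping PP mouse 7, and leaving out each mouse.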

Additional observations from a re-analysis of the deposited data

Results flagged for a closer look

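For the genes named above, 102 sets of values, each of 1 gene in 1 group, were checked for a mouse far from the others on the log2 scale, and 6 were found, where chance gives about 1 in 20. Dnajb9 was 65.4 CPM in LL mouse 42, against 17.4 to 30.6 CPM in the other LL mice, and 37.3 CPM in LL mouse 49 with GKA, against 16.5 to 25.4 CPM. Hspa5 was 776 CPM in PL mouse 33 with GKA, against 421 to 549 CPM. Ern1 was 56.5 CPM in LL mouse 44, against 30.4 to 41.4 CPM. Atf4 was 64.2 CPM in PP mouse 2, against 46.5 to 54.3 CPM, and 33.3 CPM in LL mouse 41, against 43.4 to 58.4 CPM. LL mouse 42 and LL mouse 49 with GKA, found here by Dnajb9, also had the highest Hspa5 of their group.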

How the results depend on the processing

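No paired analysis was possible because the mouse numbers of the groups differ and pair no samples. Of 884 log2 fold changes of the named genes in LL against PP under the alternatives, 863 kept their direction. Leaving out mice of PL, and counting genes lower in PL, were alternatives chosen after seeing the data. The cause of each change below was not tested.

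The number of DEGs differed between tools and with single mice left out. In LL without GKA it was 0 with edgeR, 6 with DESeq2 and 4 with the 6 groups in 1 fit, and it ranged from 0 to 5 without single mice (3 without PP mouse 6, 5 without LL mouse 42). With GKA it was 1 with edgeR, 3 with DESeq2, 2 with the 6 groups in 1 fit and 0 with the transcript length offset, and it ranged from 1 to 3 without single mice (3 without PP mouse 17). In PL without GKA it was 0 with edgeR, 6 with DESeq2, 2 with the 6 groups in 1 fit, 1 with the clock covariate and 1 with PP mouse 7 kept, with a range of 0 to 5 (5 without PP mouse 6). With GKA it was 1 with DESeq2 in PL and 0 under the other settings run.

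The genes lower at the unadjusted threshold in LL without GKA were 9 with the clock covariate and 12 with PP mouse 7 kept in place of 15, and ranged from 10 (without PP mouse 1) to 24 (without PP mouse 6). With GKA they were 10 with the clock covariate and 12 with the length offset in place of 20, and ranged from 12 (without PP mouse 19) to 23 (without LL mouse 49), with 13 without PP mouse 12. In PL without GKA they were 9 with the clock covariate and 7 with the length offset in place of 16, with a range of 14 to 21, and with GKA 2 and 9 in place of 17, with a range of 14 to 20. The median of the ATF4/CHOP arm in LL without GKA was -0.40 with the clock covariate.

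Some directions turned. In LL without GKA, the clock covariate gave 0.20 for Atf6, -0.18 for Xbp1 and -0.45 for Trib3, and the length offset 0.09 for Atf4. Without single mice the values ranged from -0.04 to 0.08 for Ern1, from -0.08 to 0.00 for Atf4 and from -0.27 to 0.08 for Chac1. With GKA, the length offset gave 0.01 for Dnajb11, 0.31 for Eif2ak3, 0.05 for Edem1 and -0.02 for Xbp1 (-0.28, -0.47, -0.40 and 0.03 without it), and the clock covariate -0.11 for Trib3. Without single mice the range was -0.05 to 0.21 for Ern1 and -0.03 to 0.10 for Xbp1.

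LL against PL, the effect of GKA and the interaction gave 0 DEGs among these genes under each alternative run. Chac1, Ddit3, Derl3 and Trib3 were among the genes with the fewest reads per mouse, which limits the precision of their values.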
